A study of Mus musculus with 7 samples.

Results

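Kinesins and dyneins are the motor proteins that carry cargo along microtubules. Their messenger RNAs were measured by bulk RNA sequencing of whole mouse retina 2 days after optic nerve crush, an injury that severs the axons of retinal ganglion cells. The motor genes were taken by name, as every row of the count table whose symbol began with Kif or Klc and a digit, with Dync1 or Dync2, or with Dynl, leaving out pseudogene names. This gave 67 of the 25655 genes in the table: 18 axonal transport kinesins and their light chains, 11 mitotic kinesins, 24 dynein genes (5 of dynein 1, 4 of dynein 2 and 15 light chains) and 14 other kinesins. The sorting into these classes was by textbook role.

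All retinas came from wildtype C57BL/6 mice and all had been crushed, so the data hold no uninjured or untreated retina. The control group had received Control AAV2, named CMV-control-AAV2 in the protocol, and the other group an AAV2 vector for overexpression of Tppp3, a tubulin-binding protein that promotes microtubule assembly. The question was which genes respond to the Tppp3 vector in injured retina, in a study of axon regrowth and ganglion cell survival. The labels give neither the age and sex of the mice nor the promoter of the Tppp3 vector nor the share of cells transduced. They name 7 retinas, 4 control and 3 Tppp3, while their protocol text counts 3 control and 4 Tppp3 retinas. Table columns matched 3 control and 3 Tppp3 samples, and those 6 libraries were used. A further column, named as a Tppp3 library, matched no labelled sample and was left out, as was the control sample without a matching column. Nothing states that the libraries of a group came from separate animals, so p-values measure the spread between these libraries, which may be technical.

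Most kinesins walk toward the plus end of a microtubule, which in an axon points away from the cell body, and most carry vesicles, mitochondria or ciliary cargo outward. Cytoplasmic dynein 1 walks the other way and returns cargo and injury signals to the cell body, while dynein 2 works inside cilia, which in the retina include the outer segments of photoreceptors. A separate set of kinesins builds the spindle and completes cytokinesis in dividing cells, and their genes are switched on late in the cell cycle. A pair of short promoter elements is known for that timing, the cell cycle genes homology region and the CCAAT box bound by NF-Y.

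The promoters of the mitotic kinesins carried letters of the first element more often than those of the other classes. Shown are 3 of them that hold letters of both elements, with 1 contrasting kinesin. Sequences are from RefSeq (GRCm38.p6), 250 bases before to 50 bases after the first listed start of the gene, written 5′ to 3′ on the gene's strand. Capitals mark the cell cycle element, searched as TTTGAA on the gene's strand, as TTCAAA when the element lies on the opposite strand, and as the variant form TTCGAA, which reads alike on both. They also mark the CCAAT box, searched as CCAAT on the gene's strand and as ATTGG when it lies on the opposite strand. None of these motifs overlaps another in the sequences shown. Kif18b (chr11:102925075-102925374, minus strand) depolymerises astral microtubules, Kif11 (chr19:37376132-37376431, plus strand) pushes spindle poles apart, and Kif4 (chrX:100625815-100626114, plus strand) compacts chromosomes and organises the central spindle. Kif2a (chr13:107022306-107022605, minus strand), a microtubule depolymerase sorted among the other kinesins, had none of these letters.
Kif18b: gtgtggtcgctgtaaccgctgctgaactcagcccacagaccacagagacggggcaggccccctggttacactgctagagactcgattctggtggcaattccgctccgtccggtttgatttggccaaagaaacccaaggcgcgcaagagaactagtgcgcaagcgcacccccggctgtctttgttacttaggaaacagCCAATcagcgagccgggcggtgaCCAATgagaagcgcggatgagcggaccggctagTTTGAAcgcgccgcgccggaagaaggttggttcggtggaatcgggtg
Kif11: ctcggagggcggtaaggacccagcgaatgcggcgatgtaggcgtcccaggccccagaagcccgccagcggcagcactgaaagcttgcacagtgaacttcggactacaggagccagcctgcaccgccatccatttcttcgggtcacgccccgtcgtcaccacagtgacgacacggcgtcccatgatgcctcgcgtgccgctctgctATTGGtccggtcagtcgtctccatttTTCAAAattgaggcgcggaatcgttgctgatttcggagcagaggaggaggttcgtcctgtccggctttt
Kif4: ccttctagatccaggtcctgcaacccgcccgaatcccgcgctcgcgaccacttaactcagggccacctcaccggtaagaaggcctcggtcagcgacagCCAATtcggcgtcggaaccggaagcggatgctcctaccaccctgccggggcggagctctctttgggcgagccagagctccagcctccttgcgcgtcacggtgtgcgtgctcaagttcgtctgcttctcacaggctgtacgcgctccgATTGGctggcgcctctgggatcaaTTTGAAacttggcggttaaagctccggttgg
Kif2a: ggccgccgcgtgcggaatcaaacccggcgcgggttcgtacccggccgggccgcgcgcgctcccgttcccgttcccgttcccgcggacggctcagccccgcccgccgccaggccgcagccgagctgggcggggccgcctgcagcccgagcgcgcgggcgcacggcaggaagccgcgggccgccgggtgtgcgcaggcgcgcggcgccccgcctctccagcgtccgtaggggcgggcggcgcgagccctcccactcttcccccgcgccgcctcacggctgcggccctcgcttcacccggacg

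Promoters were listed for 45 of the 67 motor genes. Cell cycle element letters stood in 9 of 10 listed mitotic kinesin promoters, in 0 of 13 axonal, in 0 of 11 dynein and in 3 of 11 other kinesin promoters, against 5254 of all 27025 promoters of the same length (19.4%). In Kif18b, Kif23, Kif20b and Kif4 the letters began at bases 4, 3, 8 and 20, counted with the start as base 1, and in Kif11, Kif15 and Kif22 they began 19, 19 and 17 bases before it. Within 30 bases of the start, a window chosen after the positions were seen, 7 of 10 mitotic kinesin promoters and 3.35% of all promoters had such letters. Kif18a was the mitotic kinesin without a match. CCAAT box letters stood in 6 of 10 mitotic, 5 of 13 axonal, 4 of 11 dynein and 5 of 11 other kinesin promoters, against 37.9% of all promoters. A match describes letters in this window and does not show a bound site.

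Library totals lay between 10961443 and 21843892 counts, with all controls less deep than any Tppp3 library. Retinal markers were present in every library: the summed 12 ganglion cell markers lay between 881 and 913 CPM (counts scaled to a library of equal size) in control and between 837 and 953 CPM in Tppp3 libraries. The summed 8 pigment cell markers stood apart, at 49.0, 4.61 and 5.06 CPM in control and 44.6, 12.5 and 43.1 CPM in Tppp3 libraries 1, 2 and 3, with Rpe65 between 1.23 and 19.4 CPM. Lens markers summed to 19.9 CPM in Tppp3 library 1 and to at most 3.81 CPM in every other library. Müller glia markers had positive log2 fold changes in 6 of 6, with a median of 0.19 and overlapping sums of 3269 to 4102 CPM in control and 3689 to 4535 CPM in Tppp3 libraries. Astrocyte sums lay between 36.4 and 112.5 CPM, and microglia sums between 81.1 and 166 CPM, with overlap. In the 13 marker lists 0 genes passed an adjusted p of 0.05. The CPM scaling used the trimmed mean of M-values (TMM), and all values below are given in the order of replicates 1, 2 and 3.

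Tppp3 itself, the gene of the vector, was at 18.7, 22.2 and 28.0 CPM in control and at 53.7, 36.5 and 41.8 CPM in Tppp3 libraries. All Tppp3 libraries lay above all control libraries. The log2 fold change was 0.94 ± 0.20 (SE, n = 3 and 3), with an unadjusted p of 0.0031 and an adjusted p of 0.639 in edgeR's quasi-likelihood test. With DESeq2's Wald test the adjusted p was 1.22e-05. Over the alternatives it lay between 1.22e-05 and 0.907. Reads from the vector and from the mouse gene cannot be told apart in this table.

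Axonal kinesin messages differed little between the groups, as did most dynein messages by their point estimates. For the mitotic and most other kinesins the intervals were too wide to tell. None of the 58 motor genes with enough counts to be tested passed an adjusted p of 0.05 in edgeR's test, where 0.0136% of all 14750 tested genes did (2 genes). At an unadjusted p under 0.05 there were 4 of 58 (6.90%), against 7.23% of all genes, of which 2 were higher with Tppp3 AAV2, Kif2a and Dync1li2 (background 3.67%), and 2 lower, Dynlt2b and Dynlt1c (background 3.55%). DESeq2's Wald test also called 0 motor genes (background 0.103%), and 3 had an unadjusted p under 0.05 (background 4.16%). Limma voom called 0 (background 0.00678%), with 3 at an unadjusted p under 0.05 (background 8.43%). Log2 fold changes were positive for 28 and negative for 30 motor genes, with a median of -0.0047 against 0.0030 over all tested genes. The difference stayed under 1.1-fold for 43 of 58 motor genes (74.1%), against 69.0% of all genes. The count of 4 became 1 of 57 without Tppp3 library 1 (Kif2a, background 5.60%) and 7 of 57 without Tppp3 library 2 (background 8.80%), of which 6 were higher: Kif2a, Dync1li2, Dynll2, Kif5b, Kif5c and Dync2h1. The seventh, Kif4, was lower.

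**Figure D1:**
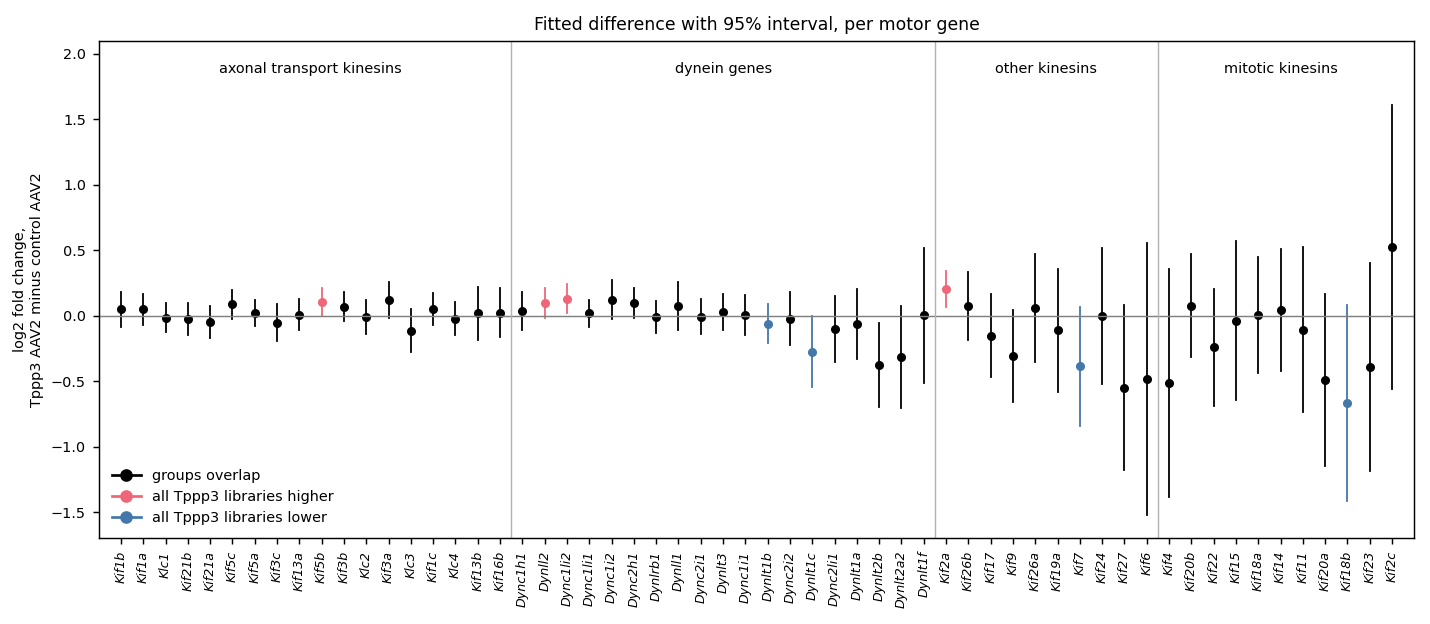
Each point is the fitted log2 fold change of 1 tested motor gene, Tppp3 AAV2 minus control AAV2, with its 95% interval from edgeR, ordered by mean level within each class. The 18 axonal transport kinesins lie between -0.12 and 0.12, while the intervals widen for the low mitotic kinesins at the right. Colour marks the 8 genes whose libraries did not overlap between groups, 4 higher and 4 lower.

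The libraries of the 2 groups did not overlap for 8 of 58 motor genes (13.8%), against 13.9% of all tested genes. Kif5b, Dynll2, Dync1li2 and Kif2a were higher in every Tppp3 library, where 6.92% of all genes were, and Dynlt1b, Dynlt1c, Kif18b and Kif7 were lower, where 7.02% of all genes were. Both shares are near their background.

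**Figure D2:**
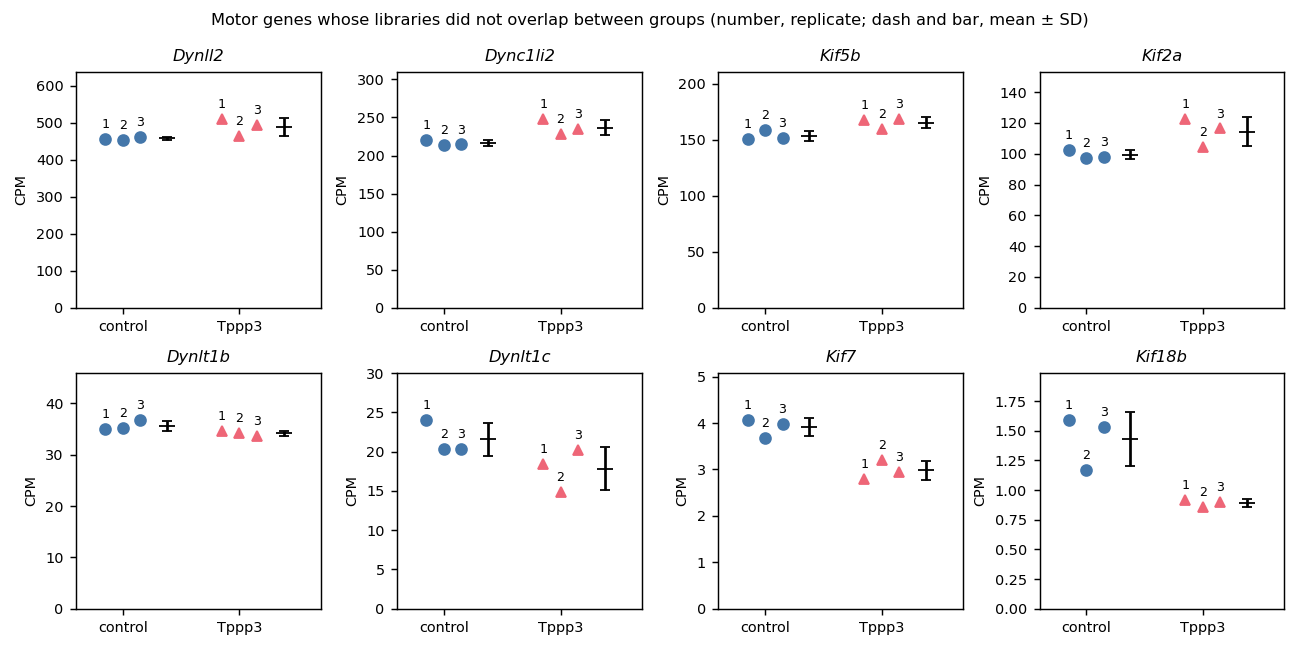
CPM in every library for the 8 motor genes whose groups did not overlap, with linear axes from 0, the replicate number beside each point, and the mean ± SD of each group (n = 3) as a dash and bar. In Dynll2, Dync1li2, Kif5b and Kif2a, Tppp3 library 2 is the lowest of its group, and in Dynlt1c the nearest libraries of the groups all but touch.

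Levels differed between the classes by far more than between the groups. Per kilobase of merged exons, taken from GENCODE M21, the median level was 32.2 CPM per kilobase for axonal kinesins and 27.9 for dynein genes, against 7.89 over all tested genes, 0.920 for other kinesins and 0.581 for mitotic kinesins. The highest levels per kilobase were those of Dynll2 at 173, Klc1 at 157, Kif1b at 105 and Kif1a at 102. In whole retina a lower level can mean fewer cells of a type or less RNA per cell, and the 2 cannot be told apart. Lengths were found for 58 of the 67 genes. Dync2i1, Dync2i2, Dynlt2b and Dynlt2a2 were tested but had no length, so the dynein median covers 15 of 19 tested genes. The medians of the other classes cover all their tested genes. Merged exons join all transcripts of a gene, so a level per kilobase can be too low where the transcripts differ.

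**Figure D3:**
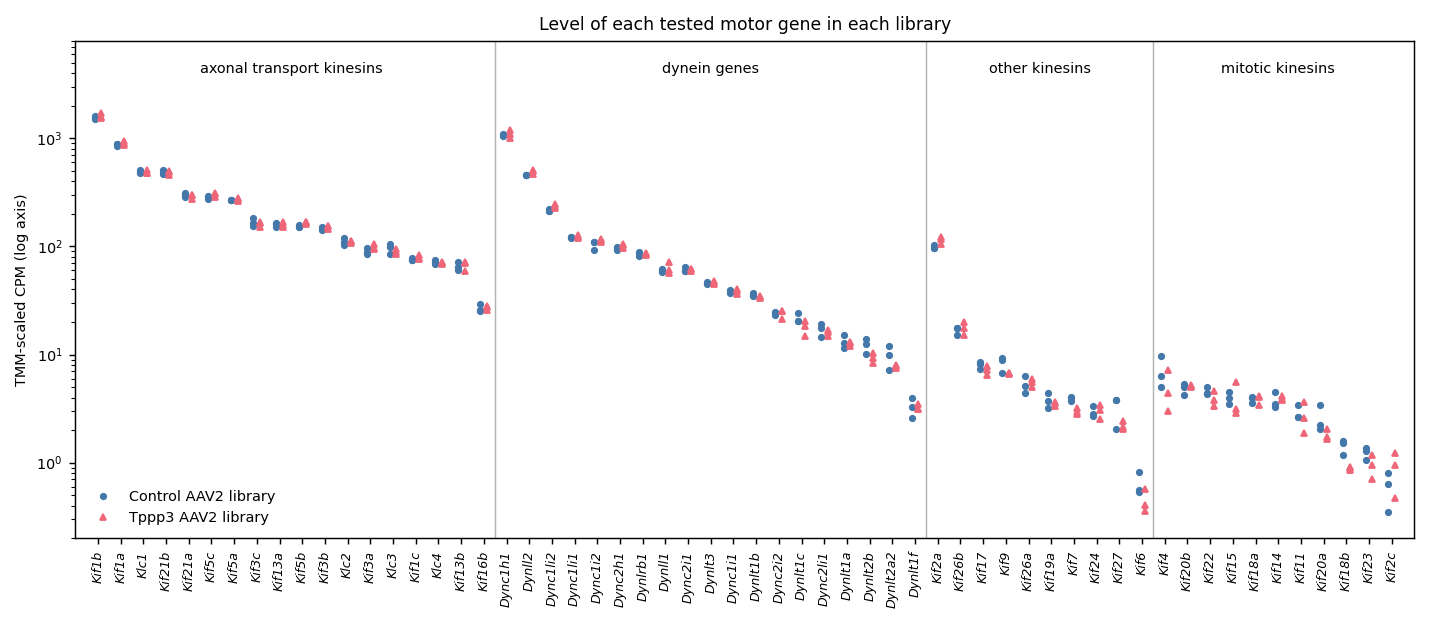
TMM-scaled CPM of the 58 tested motor genes on a log axis, 1 point for each of 3 control (circles) and 3 Tppp3 (triangles) libraries. Within each class genes run from high to low mean CPM, from 1579 CPM for Kif1b to 26.9 CPM for Kif16b in the axonal class, and from 5.96 CPM for Kif4 to 0.737 CPM for Kif2c in the mitotic class. Points of both groups lie on each other for most genes.

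Kif1b and Kif1a, kinesin-3 motors that carry synaptic vesicle precursors and, for Kif1b, mitochondria, led the axonal class. Kif1b was at 1597, 1559.9 and 1501 CPM in control and at 1702.5, 1582 and 1530.2 CPM in Tppp3 libraries. Kif1a was at 890.4, 888 and 843 CPM in control and at 937, 872 and 899.8 CPM in Tppp3 libraries. In both genes the groups overlapped, with Tppp3 library 1 the highest of all. Both log2 fold changes were 0.05, with SE of 0.060 and 0.053 and unadjusted p of 0.444 and 0.391. The smaller member of that family, Kif1c, took 4.49 to 5.23% of the family's level per kilobase in every library, and Kif1b and Kif1a took 47.1 to 48.9% and 46.3 to 47.9%. These shares depend on the length used. Merged exons held 14983 bases in Kif1b and 8668 in Kif1a. The longest coding transcripts held 10084 and 8057 stretches of 150 bases.

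Kinesin-1, the main motor of fast outward transport, is built from a Kif5 heavy chain and a Klc light chain that binds cargo. Kif5c, a neuronal heavy chain, was at 290.5, 286 and 275 CPM in control and at 305, 286 and 314 CPM in Tppp3 libraries, which overlapped (log2 fold change 0.09 ± 0.051, unadjusted p = 0.116). Kif5b, the heavy chain found in all cell types, was at 151, 159 and 151 CPM in control and at 168, 160.1 and 169 CPM in Tppp3 libraries. Control library 2 and Tppp3 library 2 lay closest, and the groups did not overlap. Its fold change was 1.08, with a 95% interval from 0.999 to 1.16, an unadjusted p of 0.0514 and an adjusted p of 0.688. On the log2 scale it was at 0.11, and at 0.05 after correction for GC content and length. Kif5a, the heavy chain with a long-known role in motor neuron disease, had a log2 fold change of 0.02.

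Klc1, the most abundant light chain, was at 483, 485 and 507 CPM in control and at 505, 476 and 477 CPM in Tppp3 libraries, which overlapped, with a log2 fold change of -0.016 ± 0.050. Klc2 and Klc4 were at -0.011 and -0.023, and Klc3 was the lowest of the class at -0.12 ± 0.075, with an unadjusted p of 0.148. Of the exon bases of Klc3, 28.5% overlap Ercc2, and reads of both may be mixed, since no source used here gives the strand used in counting. Among heavy chains, Kif5c, Kif5a and Kif5b took 39.3 ± 0.57%, 36.5 ± 0.50% and 24.2 ± 0.62% (SD, n = 3) of the level per kilobase in control and 39.8 ± 0.54%, 35.4 ± 0.39% and 24.8 ± 0.16% in Tppp3 libraries. Klc1 took 57.6 to 60.1% of the light chain level over the 6 libraries.

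**Figure D4:**
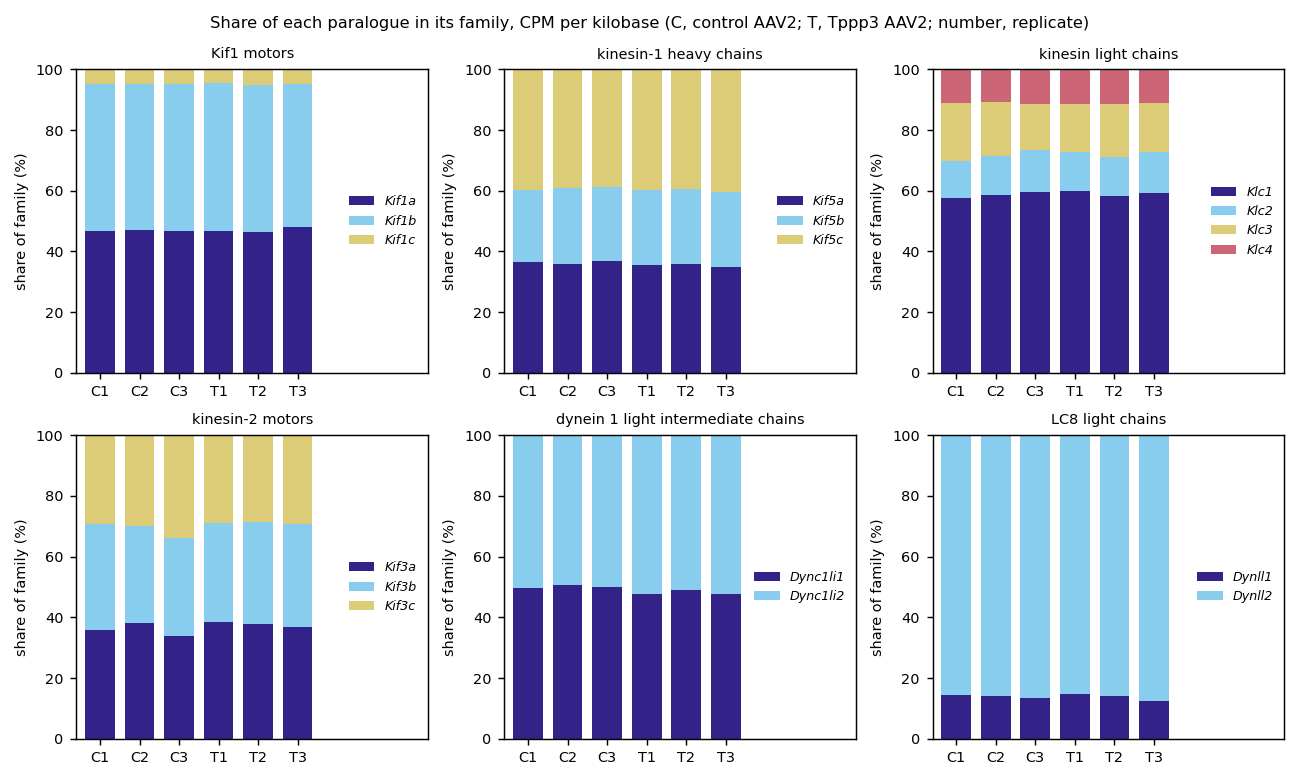
Stacked bars give the share of each paralogue in its family's summed CPM per kilobase, in percent, for control (C) and Tppp3 (T) libraries 1 to 3. Shares move by a few percentage points between libraries, as for Kif5c from 38.8 to 40.4%. In the dynein 1 light intermediate chains Dync1li2 runs from 49.3 to 50.2% in control and from 51.0 to 52.3% in Tppp3 libraries.

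Kinesin-2, a motor of Kif3a with Kif3b or Kif3c, carries cargo in axons and into the photoreceptor cilium. Kif3a was at 89.0, 97.4 and 85.7 CPM in control and at 104.8, 94.6 and 96.9 CPM in Tppp3 libraries. Control library 2 exceeded 2 of the Tppp3 libraries, so the groups overlapped. The log2 fold change was 0.12 ± 0.063, the highest of the axonal class, with an unadjusted p of 0.0816. Kif3b was at 0.07 and Kif3c at -0.05, and 43.6% of the exon bases of Kif3c overlap other genes.

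Kif21b and Kif21a, kinesins that restrain microtubule growth, completed the 5 most abundant genes of the class. Kif21b was at 499, 506 and 466 CPM in control and at 498, 488 and 459.7 CPM in Tppp3 libraries, with a log2 fold change of -0.026 ± 0.054. Kif21a was at 285, 302 and 315 CPM in control and at 296, 276 and 299.7 CPM in Tppp3 libraries, with a log2 fold change of -0.05 ± 0.055. The groups overlapped in both. The endosome and vesicle carriers Kif13a, Kif13b and Kif16b lay between 0.0074 and 0.023.

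Over the whole axonal class 11 log2 fold changes were positive and 7 negative, with a median of 0.020, and 0 of 18 reached an unadjusted p of 0.05, where 7.23% of all genes did. All 18 point estimates lay within 1.1-fold. Every 95% interval lay between 0.823-fold and 1.198-fold, so a larger change of any 1 of these genes lies outside its interval. The median SE was 0.055 on the log2 scale and the median spread within groups was 4.21% of the mean. Summed, the class was at 5482, 5449 and 5350.2 CPM in control and at 5732, 5394 and 5441 CPM in Tppp3 libraries, which overlapped, with a ratio of means of 1.02. The median was -0.012 without Tppp3 library 1, the library with the highest sum.

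**Figure D5:**
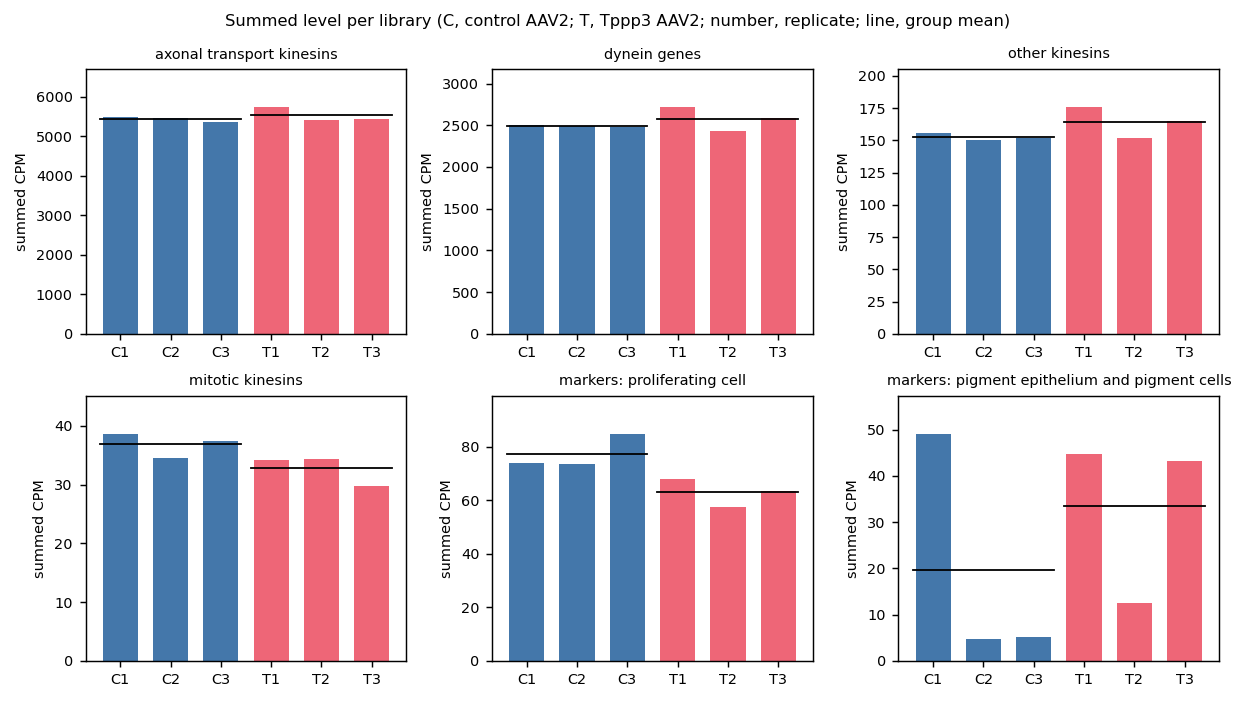
Bars from 0 give the summed CPM of each motor class and of the proliferating cell and pigment cell markers in control (C) and Tppp3 (T) libraries 1 to 3, with a line at each group mean. Axonal and dynein sums differ by few percent, the mitotic sum is 36.9 CPM in control and 32.8 CPM in Tppp3 libraries, and pigment markers are high in C1, T1 and T3.

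Dynein 1 is the motor of transport toward the cell body. Its heavy chain Dync1h1, which holds the motor domain, was at 1086, 1072 and 1049 CPM in control and at 1188, 999.8 and 1096 CPM in Tppp3 libraries. Tppp3 libraries were both the highest and the lowest, and the log2 fold change was 0.03 ± 0.066. Log2 fold changes were positive in 5 of 5 dynein 1 genes, with a median of 0.034.

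The light intermediate chains link dynein 1 to the adaptors that activate it. Dync1li2 was at 221, 214 and 215 CPM in control and at 248, 228 and 234 CPM in Tppp3 libraries. All Tppp3 libraries lay above all control libraries. Its fold change was 1.09, with a 95% interval from 1.02 to 1.18, an unadjusted p of 0.0217 and an adjusted p of 0.648. Its partner Dync1li1 was at 122.9, 123.4 and 120.1 CPM in control and at 127.1, 123.3 and 120.8 CPM in Tppp3 libraries, which overlapped, with a log2 fold change of 0.02 ± 0.047. The unadjusted p of Dync1li2 was 0.106 without Tppp3 library 1.

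Dync1i2, the intermediate chain that docks dynactin, was at 93.7, 109.4 and 111.1 CPM in control and at 113.6, 111.1 and 117.9 CPM in Tppp3 libraries. Control library 1 stood below the rest and control library 3 just above Tppp3 library 2. The log2 fold change was 0.12 ± 0.066 with all libraries and 0.05 without control library 1. Dync1i1, the neuronal intermediate chain, was at 0.0068.

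Of the 4 dynein 2 genes, which return cargo from the ciliary tip, 1 log2 fold change was positive and 3 negative. The heavy chain Dync2h1 was at 0.10 ± 0.052 with an unadjusted p of 0.0887, and Dync2i1, Dync2i2 and Dync2li1 were at -0.0070, -0.022 and -0.10. None had groups that did not overlap.

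Among the light chains, Dynll2 of the LC8 type, a dimer that braces the dynein tail and many other proteins, was far the most abundant. It was at 457, 454 and 463 CPM in control and at 510.3, 464 and 494 CPM in Tppp3 libraries. The groups did not overlap, though control library 3 and Tppp3 library 2 were close. The log2 fold change was 0.10 ± 0.051, with an unadjusted p of 0.0886 and an adjusted p of 0.745. Dynll2 took 85.1 to 87.5% of the level per kilobase of Dynll1 and Dynll2 together in the 6 libraries.

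Dynlt2b, a Tctex-type light chain of dynein 2, was at 12.6, 10.2 and 13.8 CPM in control and at 8.33, 9.38 and 10.4 CPM in Tppp3 libraries. Tppp3 library 3 exceeded control library 2, so the groups overlapped. The log2 fold change was -0.37 ± 0.15, with an unadjusted p of 0.0261 and an adjusted p of 0.661.

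The Tctex-type light chain Dynlt1 has 4 copies in this annotation. Their coding sequences of 342 bases are identical between Dynlt1a, Dynlt1c and Dynlt1f, and Dynlt1b differs from each at 1 base. The first 60 coding bases (GENCODE M21), with that base in capitals, are shown because reads can be shared between copies:
Dynlt1a: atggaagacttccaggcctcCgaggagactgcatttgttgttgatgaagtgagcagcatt
Dynlt1b: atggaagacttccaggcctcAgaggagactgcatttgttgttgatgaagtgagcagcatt
Dynlt1c: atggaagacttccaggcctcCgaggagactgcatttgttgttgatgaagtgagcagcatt
Dynlt1f: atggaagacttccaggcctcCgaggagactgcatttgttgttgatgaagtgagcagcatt
Of all stretches of 150 bases, the read length, 80.9% in Dynlt1c, 80.6% in Dynlt1b, 75.9% in Dynlt1f and 35.6% in Dynlt1a also occur in another gene. No source used here states how such reads were assigned, so the split between copies is uncertain.

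Dynlt1c was at 24.0, 20.4 and 20.3 CPM in control and at 18.4, 14.8 and 20.3 CPM in Tppp3 libraries. Control library 3 and Tppp3 library 3 were nearly level, and the groups did not overlap by that margin alone. The log2 fold change was -0.27 ± 0.12, with an unadjusted p of 0.0498 and an adjusted p of 0.688, and it was -0.16 without Tppp3 library 2. Dynlt1b was at 35.0, 35.2 and 36.8 CPM in control and at 34.6, 34.3 and 33.7 CPM in Tppp3 libraries, without overlap, at a log2 fold change of -0.06 ± 0.067. Dynlt1a and Dynlt1f were at -0.06 and 0.0033.

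Over all dynein genes 19 of 24 were tested, with 10 positive and 9 negative log2 fold changes and a median of 0.0033. An unadjusted p under 0.05 was reached by 3 of 19 (15.8%, against 7.23% of all genes), and 4 of 19 had groups that did not overlap (21.1%, against 13.9% of all genes). The Dynlt1 copies, which share reads, are 1 of these 3 and 2 of these 4. In sum the class was at 2504, 2494 and 2483 CPM in control and at 2717, 2434 and 2589 CPM in Tppp3 libraries. The Tppp3 libraries lay on both sides of the controls. The dynein genes not tested were Dynlt2a3, Dynlt2a1, Dynlrb2 and Dynlt5, with highest values of 1.17, 0.541, 0.451 and 0.203 CPM, and Dynlt4 at 0 CPM in every library.

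Kif2a, a kinesin-13 that takes microtubules apart at their ends and prunes axon branches, had the smallest p of all motor genes. It was at 102.6, 97.4 and 97.7 CPM in control and at 122.4, 104.4 and 116.4 CPM in Tppp3 libraries. Every Tppp3 library lay above every control library, with Tppp3 library 2 close to control library 1. The fold change was 1.15, with a 95% interval from 1.05 to 1.27. The unadjusted p was 0.00773 and the adjusted p 0.639. With 1 library left out the log2 fold change lay between 0.15 and 0.27, and over all alternatives the adjusted p lay between 0.354 and 0.907.

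The Tppp3 libraries came in the order 1, 3, 2 for Kif2a and Dync1li2, as for the summed pigment cell markers given above. Control libraries came in that order too, in both genes and in the pigment sum. Control library 1 held the highest pigment sum of all libraries and lay below every Tppp3 library in both genes. All 6 tested pigment markers had positive log2 fold changes and none of the 8 listed was at 0 in every library. Their part in these differences was not tested. Of the exon bases of Kif2a, 13.2% overlap Dimt1, and of those of Dync1li2, 9.23% overlap K230015D01Rik. Corrected for GC content and length, Kif2a was at 0.14 on the log2 scale.

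The remaining other kinesins were low. Kif26b, an unusual kinesin without motor ATPase activity, was at 17.5, 17.5 and 15.2 CPM in control and at 20.1, 15.3 and 17.6 CPM in Tppp3 libraries. Kif17, a motor of dendrites and of the photoreceptor cilium, was at 8.48, 8.17 and 7.41 CPM in control and at 7.92, 6.49 and 7.26 CPM in Tppp3 libraries. Both overlapped between groups, at log2 fold changes of 0.08 ± 0.12 and -0.15 ± 0.15. Kif26a, a relative of Kif26b, was at 4.42, 5.10 and 6.32 CPM in control and at 5.94, 5.54 and 4.98 CPM in Tppp3 libraries, at 0.06 ± 0.19 and with overlap.

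Kif7, which acts at the ciliary tip in Hedgehog signalling, was at 4.06, 3.69 and 3.97 CPM in control and at 2.79, 3.20 and 2.94 CPM in Tppp3 libraries. The groups did not overlap, and the log2 fold change was -0.39 ± 0.21 with an unadjusted p of 0.0890 and an adjusted p of 0.745. Of the exon bases of Kif7, 20.3% overlap Ticrr and 9330171B17Rik.

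Kif27, related to Kif7 and needed for motile cilia, was at 2.03, 3.81 and 3.79 CPM in control and at 2.03, 2.43 and 2.14 CPM in Tppp3 libraries. Control library 1 lay at the level of Tppp3 library 1, so the groups overlapped. Its log2 fold change was -0.55 ± 0.29, with an unadjusted p of 0.0803. Kif9, a kinesin of motile cilia and flagella, was at 9.36, 6.70 and 8.94 CPM in control and at 6.70, 6.67 and 6.74 CPM in Tppp3 libraries. Control library 2 lay among the Tppp3 libraries, and the log2 fold change was -0.31 ± 0.16. Kif19a, which sets ciliary length, was at -0.11, Kif24, a regulator of centrioles, at -0.0024, and Kif6 at -0.48.

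Of the 10 tested other kinesins 3 log2 fold changes were positive and 7 negative, with a median of -0.13. The sum was at 155.9, 150.5 and 151.7 CPM in control and at 175.9, 151.7 and 165.1 CPM in Tppp3 libraries, most of it from Kif2a. With every library thinned to the shallowest, the median was -0.0073. Kif19b, Kif28 and Kif12 were too low to test, with highest values of 0.618, 0.559 and 0.061 CPM, and Kif2b was at 0 CPM in every library.

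The mitotic kinesins were low in every library. Kif4 was at 9.72, 6.39 and 4.97 CPM in control and at 4.42, 7.26 and 2.99 CPM in Tppp3 libraries. The groups overlapped widely, and the log2 fold change of -0.52 ± 0.37 had an unadjusted p of 0.204. It was at -0.22 without control library 1 and at -0.92 without Tppp3 library 2, there with an unadjusted p of 0.0136. Kif20b, a kinesin of cytokinesis, was at 5.39, 4.24 and 4.97 CPM in control and at 5.13, 5.23 and 4.98 CPM in Tppp3 libraries, at 0.08 ± 0.18. Kif22, which pushes chromosome arms outward, was at 4.42, 4.36 and 5.06 CPM in control and at 4.57, 3.79 and 3.32 CPM in Tppp3 libraries, at -0.24 ± 0.20. Both overlapped between groups. Of the exon bases of Kif4, 15.1% overlap Pdzd11.

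Kif15, which backs up Kif11 in keeping the spindle bipolar, was at 3.98, 3.50 and 4.52 CPM in control and at 3.15, 2.88 and 5.60 CPM in Tppp3 libraries. Tppp3 library 3 was the highest of all and the other 2 the lowest, with a log2 fold change of -0.038 ± 0.28. Kif18a, which aligns chromosomes at the metaphase plate, was at 3.98, 3.56 and 4.06 CPM in control and at 4.06, 4.15 and 3.42 CPM in Tppp3 libraries, at 0.0066 ± 0.20 and with overlap.

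Kif20a, a motor of the central spindle in cytokinesis, was at 2.21, 2.03 and 3.43 CPM in control and at 2.03, 1.71 and 1.66 CPM in Tppp3 libraries. Tppp3 library 1 and control library 2 were nearly level, so the groups overlapped, at -0.49 ± 0.30 on the log2 scale and an unadjusted p of 0.126. Without control library 3 it was at -0.23. Of its exon bases 31.8% overlap Cdc23. Kif18b was at 1.59, 1.17 and 1.54 CPM in control and at 0.914, 0.856 and 0.902 CPM in Tppp3 libraries. The groups did not overlap, and the log2 fold change was -0.67 ± 0.34 with an unadjusted p of 0.0748 and an adjusted p of 0.729. These values rest on 18, 19 and 17 counts in control and on 18, 19 and 19 counts in Tppp3 libraries. The counts were thus nearly equal in libraries of unequal depth.

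Over the 11 mitotic kinesins 4 log2 fold changes were positive and 7 negative, with a median of -0.11 and a range from -0.67 to 0.52 (Kif2c, 79 counts in all libraries together). None reached an unadjusted p of 0.05. Intervals reached from 0.375-fold to 3.04-fold, so moderate changes in the lowest of these genes were not detectable at this depth. The median was -0.38 without Tppp3 library 1 and -0.0063 without control library 3. With every library thinned to the shallowest it was -0.22, with 1 positive and 9 negative of 10 tested. The split was 2 positive and 9 negative under GC and length correction, and 5 positive and 6 negative without control library 3. In sum the class was at 38.6, 34.5 and 37.5 CPM in control and at 34.1, 34.4 and 29.8 CPM in Tppp3 libraries. All Tppp3 sums lay below all control sums, the nearest pair by a small margin.

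Beside this, the 14 listed markers of proliferating cells, among them Mki67 and Top2a, summed to 74.0, 73.7 and 84.8 CPM in control and to 68.0, 57.6 and 63.4 CPM in Tppp3 libraries. Log2 fold changes were negative in 12 of 12 tested markers, with a median of -0.28, and 2 of them were lower without overlap, where 7.02% of all genes were. None passed an adjusted p of 0.05, and none of the 14 was at 0 in every library. Mki67 lay between 1.80 and 4.34 CPM. The part of proliferating cells in the mitotic kinesin values was not tested.

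A further list held 43 genes outside the naming rule, most of them partners of these motors and 4 of them kinesins with other names (Kifc1, Kifc2, Kifc3 and Cenpe), and 42 were tested. In edgeR's test 0 passed an adjusted p of 0.05 and 4 of 42 reached an unadjusted p under 0.05 (9.52%, against 7.23% of all genes), Hook3, Hook1 and Trak2 higher and Cenpe lower. Log2 fold changes were positive for 27 and negative for 15, with a median of 0.024. Groups did not overlap for 8 of 42 (19.0%, against 13.9% of all genes), 7 higher and 1 lower.

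Hook3 and Hook1 join dynein 1 and dynactin to their cargo. Hook3 was at 225, 211 and 209.9 CPM in control and at 264, 225 and 244 CPM in Tppp3 libraries, at a log2 fold change of 0.18 ± 0.062, an unadjusted p of 0.0131 and an adjusted p of 0.648. Hook1 was at 306, 305 and 281 CPM in control and at 356, 309.8 and 337 CPM in Tppp3 libraries, at 0.17 ± 0.061, an unadjusted p of 0.0184 and an adjusted p of 0.648. In both, every Tppp3 library lay above every control library, though Tppp3 library 2 was nearly level with control library 1. The Tppp3 libraries came in the order 1, 3, 2 seen for Kif2a. Their control libraries came in the order 1, 2, 3, unlike those of Kif2a. Corrected for GC content and length, Hook3 was at 0.07 and Hook1 at 0.11.

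Dctn1, the dynactin subunit that holds the microtubule, was at 534.5, 541 and 507 CPM in control and at 554, 559.6 and 522 CPM in Tppp3 libraries, which overlapped, at 0.05 ± 0.052. Pafah1b1 (LIS1), which helps dynein out of its inactive state, was at 311, 304 and 312 CPM in control and at 326, 324 and 321 CPM in Tppp3 libraries. These groups did not overlap, at 0.07 ± 0.044 and an unadjusted p of 0.146, and at 0.0063 after correction for GC content and length. Kifap3, the cargo subunit of kinesin-2, was at 122, 130.4 and 134 CPM in control and at 138, 138 and 135 CPM in Tppp3 libraries, at 0.09 ± 0.051 and an unadjusted p of 0.109, again without overlap.

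Cenpe, the kinetochore motor of mitosis, was at 7.24, 8.23 and 6.32 CPM in control and at 6.40, 4.87 and 5.50 CPM in Tppp3 libraries, which overlapped. Its log2 fold change was -0.38 ± 0.17, with an unadjusted p of 0.0479 and an adjusted p of 0.688. Kifc1, a minus-end motor that bundles the spindle, was at 4.68, 4.61 and 4.70 CPM in control and at 3.96, 4.19 and 3.94 CPM in Tppp3 libraries. Those groups did not overlap, at -0.21 ± 0.18 and an unadjusted p of 0.274. Kifbp, which binds and blocks several kinesins, and Mapk8ip3 (JIP3), which tethers kinesin-1 and dynein to axonal cargo, overlapped between groups at -0.04 and 0.02.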

How the data were processed

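Counts of reads per gene were deposited as 1 table of the whole series, with no normalization per the file headers. The build was GRCm39 (mm39) per the submitters' processing notes, while the aligner, the counter and the counting strand were not given in the sources used here. The libraries were made from poly(A)-selected RNA and read as pairs of 150 bases, per the labels' protocols. Table columns were matched to samples by title, 1 value column (named as a Tppp3 library) matched none and was not used, and 1 control sample is not analysed here, so 6 libraries were fitted.

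Counts were fitted in edgeR 4.0.16 (R 4.3.3) with TMM scaling, filterByExpr, and the robust quasi-likelihood test, two-sided, over 14750 genes. P-values were adjusted by Benjamini and Hochberg over all of them, with a threshold of 0.05, and the common biological variation was 11.92%. Alternatives used DESeq2 1.42.0, limma 3.58.1 voom, other filters, thinned counts, each library left out, the replicate number as a block, and a GC and length correction. The procedure was tested on simulated data with larger changes than those of most motor genes, which does not show how well it finds smaller ones. Named genes were Tppp3, in each class the 5 most abundant and the 3 of smallest p, and all whose libraries did not overlap. Of the cofactors, those of smallest p and a few of known role were named. The motor genes, classes and marker lists were chosen with earlier results of these data known. Libraries of 1 group differed by more than sampling noise, with a chi-square per gene of 3.995 to 13.4. Totals were 10961443 to 21843892 counts, and 9 motor genes were too low to test.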

Additional observations from a re-analysis of the deposited data

How the results depend on the processing

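The count of all genes called was 2 with edgeR, 14 with DESeq2's Wald test, 1 with limma voom, 6 without a filter, 1 after thinning, and 0 to 3 with 1 library left out. Motor genes called stayed at 0 under all 13 alternatives that give a test, where the lowest adjusted p was 0.354. Those under an unadjusted p of 0.05 numbered 1 to 7 with 1 library left out. Motor genes without overlap between groups numbered 8, and 6 after thinning.

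With 1 library left out, the median log2 fold change ran from -0.012 to 0.033 for axonal kinesins, -0.38 to -0.0063 for mitotic kinesins, -0.026 to 0.022 for dynein genes and 0.0067 to 0.031 for cofactors. The dynein median was 0.030 after GC and length correction, which covered only 15 of the 19 tested dynein genes. Dynlt2b, Dynlt2a2, Dync2i2 and Dync2i1 had no length and dropped out, with uncorrected values of -0.37, -0.31, -0.022 and -0.0070. The corrected median is thus of another gene set than the uncorrected one. The median of other kinesins was -0.0073 after thinning.

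With the replicate number as a block, 1 gene was called. Deviations of same-numbered libraries correlated at -0.029, 0.051 and -0.26, so no such pair exceeded 0.1. Libraries of unlike number correlated between -0.224 and 0.255. With so few libraries these values show no pairing by number and cannot exclude it. With the replicate block and GC and length correction together the dynein median was 0.028, again over the 15 genes with a length.

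Of 40 named genes, 28 kept their direction in every alternative. Under GC and length correction, and with the block added, the others read -0.041 and -0.042 for Kif1b, 0.0069 and 0.0067 for Klc1, -0.035 and -0.038 for Kif18a, -0.038 and -0.041 for Dync1h1, and 0.016 and 0.015 for Dynlt1b. Kif26b was at -0.0022 with the block and correction, and after thinning Kif18a was at -0.060 and Kif26a at -0.0073. Leaving out 1 library moved Kif1b from -0.0017 to 0.080, Klc1 from -0.049 to 0.0070, Kif21b from -0.061 to 0.0061, Kif20b from -0.018 to 0.15, Kif15 from -0.40 to 0.14, Kif18a from -0.053 to 0.089, Dync1h1 from -0.033 to 0.095, Dync1li1 from -0.0059 to 0.035, Kif26b from -0.032 to 0.17, Kif26a from -0.053 to 0.20 and Mapk8ip3 from -0.00049 to 0.063. The cause was not tested. In no alternative did a named motor gene pass the adjusted threshold, and Tppp3 passed it in DESeq2's Wald test.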

Other observations

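Kinesins outside the naming rule were also measured. The minus-end kinesin Kifc2, a neuronal motor, was at 72.4, 75.5 and 75.1 CPM in control and at 72.4, 79.9 and 68.8 CPM in Tppp3 libraries, with overlap. Kifc3 was at 33.4, 41.0 and 36.1 CPM in control and at 28.5, 34.1 and 34.4 CPM in Tppp3 libraries. These groups overlapped too, at a log2 fold change of -0.19 ± 0.099 and an unadjusted p of 0.0778 in edgeR's test. The mitochondrial motor adaptors Trak2 and Trak1 lay at 0.11 ± 0.048 and -0.05 ± 0.049. Both Kifc genes and Trak1 were picked after their values were seen.

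The cell cycle element letters searched above also stood in the promoters of 3 kinesins sorted among the others: in Kif26b 9 bases and in Kif24 26 bases before the start, and in Kif27 at 191, 89 and 73 bases before it.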
